A study of Mus musculus with 6 samples.

Results

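The genes described here encode the 6 chains of collagen IV (Col4a1 to Col4a6), the nidogens Nid1 and Nid2, and the heparan sulfate proteoglycans perlecan (Hspg2) and agrin (Agrn). They were found by symbol in the annotation of mouse genome build NCBIM37 and are 10 of the 33460 genes with a value in every library. RNA-seq had been done on 3 samples of FACS sorted brain mural cells and on 3 samples of brain microvascular fragments from mice at postnatal day 6. All mice carried Pdgfrb-eGFP (Tg(Pdgfrb-eGFP)JN169Gsat/Mmucd) and NG2-DsRed, fluorescent reporters under the control of the Pdgfrb and NG2 (Cspg4) genes. The mural cells were those positive for both reporters. Per the study, they include pericytes and the mural cells of arterioles and venules, some of which carry little NG2-DsRed and may be missed. The fragments were collected with anti-CD31 beads and hold endothelial cells together with mural cells, so the comparison sets mural cells against a mixture that contains them. The brains of 3 mice were divided, with one side going to each preparation, and the preparations also differed in digestion and in sorting, which cannot be told apart from the groups.

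Basement membranes are thin sheets of extracellular matrix, and in brain capillaries pericytes lie within the sheet that surrounds the endothelium. Collagen IV chains assemble in the endoplasmic reticulum into trimers that join end to end into a network. The most widespread trimer holds more Col4a1 than Col4a2 chains, and trimers with the Col4a3 to Col4a6 chains are known from more restricted sites such as the kidney glomerulus. Nidogens bind laminin and collagen IV, and perlecan and agrin carry heparan sulfate chains. Mutations in the genes of the Col4a1 and Col4a2 chains are a known cause of brain small vessel disease.

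The collagen IV genes lie in pairs that start close together and run in opposite directions. Start regions of the pairs are shown. Col4a1 with Col4a2 and Col4a5 with Col4a6 are compared as pairs below, while Col4a3 and Col4a4 are not. Coordinates are of NCBIM37, and every sequence is given from the plus strand. Col4a1 (ENSMUSG00000031502, chr8:11198423-11312826, minus strand) and Col4a2 (ENSMUSG00000031503, chr8:11312805-11449287, plus strand) overlap at their annotated starts by 22 bases, chr8:11312805-11312826, of longest transcripts of 6615 and 6450 bases, and whether the counting used strand is not given in the sources used here. Col4a4 (ENSMUSG00000067158, chr1:82447298-82583424, minus strand) and Col4a3 (ENSMUSG00000079465, chr1:82583496-82718634, plus strand) are 71 bases apart. Col4a6 (ENSMUSG00000031273, chrX:137599946-137908619, minus strand) and Col4a5 (ENSMUSG00000031274, chrX:137909928-138123778, plus strand) are 1308 bases apart. For the last pair the 250 bases before the Col4a5 start are shown, and the same length is shown for Nid1 (ENSMUSG00000005397, chr13:13529869-13604542, plus strand), the nidogen with the larger difference between the groups. Capitals mark a CCAAT box (CCAAT) or a GC box (GGGCGG) on either strand.
Start of Col4a1 and Col4a2, chr8:11312805-11312826: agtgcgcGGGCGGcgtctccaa
Between Col4a4 and Col4a3, chr1:82583425-82583495: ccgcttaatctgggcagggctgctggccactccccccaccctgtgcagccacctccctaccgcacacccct
Before Col4a5, chrX:137909678-137909927: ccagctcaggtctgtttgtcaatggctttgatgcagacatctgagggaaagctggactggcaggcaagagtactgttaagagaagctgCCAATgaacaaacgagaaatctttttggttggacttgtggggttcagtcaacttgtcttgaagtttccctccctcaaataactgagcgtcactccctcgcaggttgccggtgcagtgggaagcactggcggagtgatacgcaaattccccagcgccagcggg
Before Nid1, chr13:13529619-13529868: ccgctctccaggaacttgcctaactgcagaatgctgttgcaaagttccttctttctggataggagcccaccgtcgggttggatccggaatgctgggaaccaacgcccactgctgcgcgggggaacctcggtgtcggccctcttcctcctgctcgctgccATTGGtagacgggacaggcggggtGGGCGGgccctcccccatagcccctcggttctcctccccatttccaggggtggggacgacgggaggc

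In the 250 bases before their starts, Col4a1 held 1 CCAAT box and no GC box, and Col4a2 held 1 CCAAT box and 2 GC boxes. Neither motif was found before Col4a3 or Col4a4. Col4a5 held 1 CCAAT box, and Col4a6 held 1 GC box. Nid1 held 1 of each, Nid2 (ENSMUSG00000021806, chr14:20570479-20631009, plus strand) held 2 CCAAT boxes and 1 GC box, and Hspg2 (ENSMUSG00000028763, chr4:137024634-137126545, plus strand) held 1 CCAAT box and 3 GC boxes. Agrn (ENSMUSG00000041936, chr4:155539399-155571536, minus strand) stood apart with 11 GC boxes in a window of 84.0% G and C, some of them overlapping each other. No TATA box (TATAAA) was found before any of the 10 genes. Of the starts of 20930 protein-coding genes, 35.1% had a CCAAT box, 41.6% a GC box and 11.6% a TATA box in a window of this length. A match is a run of letters and not a bound site.

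The values are FPKM, sequenced fragments scaled to exon length and to the size of the library, which can be compared between genes of different length. The depth behind them, worked out from the steps between low values, was about 5420000 to 5950000 fragments on protein-coding genes in the microvascular fragments and 1040000 to 2370000 in the mural cells. All 11 mural cell markers were higher in the sorted cells, with ratios of mean FPKM from 6.47 to 10.9. These included Pdgfrb (ratio 9.81) and Cspg4 (ratio 6.47), on whose reporters the cells were sorted. Endothelial transcripts were still present in the sorted cells. Of the 12 endothelial markers, 7 were lower in the mural cells and 5 did not pass the test. Their median ratio was 0.685, with a summed level of 1672 to 2178 FPKM in the mural cells and 2303 to 2679 FPKM in the fragments. All 8 microglia markers were lower in the mural cells, at 151.0 to 191.2 FPKM in sum against 1632 to 1883 FPKM. In the opposite direction, 4 of 6 fibroblast markers tested were higher, at 161.4 to 182.7 FPKM in sum against 22.58 to 30.32 FPKM, with Col1a1 at a ratio of 12.9 and Dpep1 listed at 0 in every library but 1. Of 5 choroid plexus markers, 3 were lower in the mural cells, and the list summed to 205.4 to 267.3 FPKM there against 665.1 to 1421 FPKM in the fragments. None of the tested astrocyte, neuron and oligodendrocyte lineage markers passed the test. The summed level of 7 astrocyte markers reached 678.5 FPKM in mural replicate 3 and was 183.9 and 233.4 FPKM in the other mural libraries. The part of these cell types in the results that follow was not tested.

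The main chains of collagen IV were among the most abundant transcripts of the mural cells and were higher there than in the fragments. Col4a1 was at 342.1, 318.4 and 237.6 FPKM in the fragments and at 1144, 1423 and 957.3 FPKM in the mural cells. The lowest mural library was above the highest fragment library by a wide margin, and replicate 3 was the lowest of each group. The means were 299.4 ± 54.8 FPKM in the fragments and 1175 ± 234 FPKM in the mural cells (± SD, n = 3 each), which differed 3.93-fold. The log2 fold change of FPKM + 1 was 1.97 ± 0.20 (SE), with a limma adjusted p of 0.000607. Among 13415 protein-coding genes ranked by mean FPKM, Col4a1 was at rank 7 in the mural cells and at rank 94 in the fragments. In bulk RNA, fewer cells of a type and less RNA per cell cannot be told apart, and p-values measure the spread between these 3 samples per group.

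Col4a2, the partner chain of Col4a1 in the widespread trimer, was at 329.6, 381.4 and 297.5 FPKM in the fragments and at 948.6, 1083 and 980.1 FPKM in the mural cells. The groups did not overlap, and the mural libraries lay closer together than they did for Col4a1. The means were 336.2 ± 42.3 and 1004 ± 70.2 FPKM, with a ratio of 2.99 between them, and the log2 fold change was 1.58 ± 0.14 (limma adjusted p = 0.000323). Col4a2 was at rank 11 in the mural cells and at rank 75 in the fragments. Both chains remained past the threshold in each of the 15 alternative analyses.

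**Figure D1:**
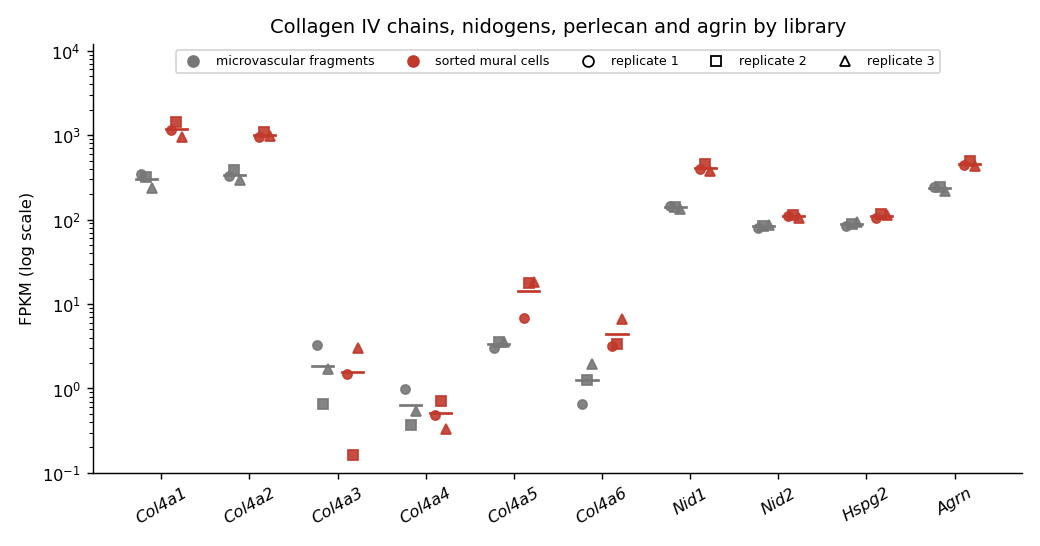
FPKM (log axis) of the collagen IV chains, nidogens, perlecan and agrin in each of the 6 libraries; grey points are microvascular fragments, red points are mural cells, shapes are replicate numbers and bars are group means. Col4a1 and Col4a2 are the highest points in the mural cells, at means of 1175 and 1004 FPKM, Col4a3 to Col4a6 reach at most 18.2 FPKM, and Hspg2 and Nid2 differ little between the groups.

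The chains found in more restricted basement membranes were at a much lower level. Col4a5, the X-linked chain mutated in most families with Alport syndrome, was at 3.03, 3.59 and 3.57 FPKM in the fragments. In the mural cells it was at 6.88, 17.9 and 18.2 FPKM. Every mural library was above every fragment library, but mural replicate 1 was well below the other two. The ratio of the means was 4.21 (14.3 ± 6.43 against 3.40 ± 0.320 FPKM), and the log2 fold change was 1.69 ± 0.37 (limma adjusted p = 0.0169). About 77 to 91 fragments lay behind each mural value and 87 to 105 behind each value of the microvascular fragments. The adjusted p was 0.0634, 0.053 and 0.0594 without fragments replicate 1, 2 and 3, so that the call was lost each time. It was kept without mural replicate 1, 2 or 3, at 0.00202, 0.0435 and 0.0436.

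Col4a6, the neighbour of Col4a5 and its partner in some epithelial and smooth muscle basement membranes, was at 0.646, 1.25 and 1.94 FPKM in the fragments and at 3.14, 3.33 and 6.69 FPKM in the mural cells. The groups did not overlap, and the ratio of the means was 3.44. The log2 fold change of 1.22 ± 0.37 had a limma adjusted p of 0.0525 and did not pass. Only about 16 to 36 fragments per library supported the mural values. The adjusted p was under 0.05 in 5 of 14 alternative analyses.

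Col4a3 and Col4a4, whose products form a trimer with Col4a5 in the kidney glomerulus, were at low levels. Col4a4 and the mural values of Col4a3 were near the limit of these libraries. About 124, 23 and 66 sequenced fragments lay behind the Col4a3 values of the microvascular fragments. Col4a3 was at 3.26, 0.652 and 1.70 FPKM in the fragments and at 1.48, 0.161 and 3.04 FPKM in the mural cells. The groups overlapped fully, with replicate 2 the lowest of each, and a single fragment lay behind the lowest mural value. The log2 fold change of -0.23 had a 95% confidence interval from -1.52 to 1.05 (limma adjusted p = 0.798). It turned positive under quantile normalization (0.44), without fragments replicate 1 (0.10) and without mural replicate 2 (0.25). Col4a4 was at 0.990, 0.373 and 0.537 FPKM in the fragments and at 0.488, 0.707 and 0.334 FPKM in the mural cells. It was the member that did not reach 1 FPKM in at least 3 libraries and was not tested, and its mural values rested on 2 to 7 fragments each.

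Both nidogens were higher in the mural cells, although the call of Nid2 was not held in every alternative analysis. Nid1, which links the laminin and collagen IV networks, was at 146.1, 141.5 and 134.4 FPKM in the fragments and at 395.1, 450.8 and 374.4 FPKM in the mural cells. The libraries of each group lay close together and far from the other group. The ratio of the means was 2.89 (406.8 ± 39.5 against 140.7 ± 5.93 FPKM), with a log2 fold change of 1.52 ± 0.11 (limma adjusted p = 0.000193). Nid1 passed the threshold in all 15 alternative analyses.

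Nid2, the second nidogen, was at 80.1, 83.3 and 85.6 FPKM in the fragments and at 110.5, 113.0 and 104.6 FPKM in the mural cells. The groups did not overlap, but the distance between them was small. The ratio of the means was 1.32 and the log2 fold change 0.39 ± 0.10 (limma adjusted p = 0.0277). This call was held in 7 of 15 alternative analyses, and the adjusted p ranged from 0.0201 to 0.14 among them. It was lost when any one of the fragment libraries was left out (adjusted p = 0.14, 0.111 and 0.0847 without replicate 1, 2 and 3) and without mural replicate 1 (0.0524) or 2 (0.0622).

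Of the heparan sulfate proteoglycans, agrin was higher in the mural cells and perlecan did not pass the test. Agrn, known for its role at the neuromuscular junction and present in the basement membrane of brain capillaries, was at 240.6, 245.0 and 218.1 FPKM in the fragments. In the mural cells it was at 447.3, 498.4 and 428.0 FPKM. The groups were well apart, with a ratio of the means of 1.95 (457.9 ± 36.4 against 234.6 ± 14.4 FPKM). The log2 fold change was 0.96 ± 0.11 (limma adjusted p = 0.00124), and it was past the threshold in all 15 alternative analyses.

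Hspg2, whose product perlecan binds growth factors through its heparan sulfate chains, was at 82.9, 89.4 and 94.3 FPKM in the fragments and at 104.1, 115.8 and 113.3 FPKM in the mural cells. No mural library was below a fragment library. The ratio of the means was 1.25 (111.1 ± 6.17 against 88.9 ± 5.75 FPKM). The log2 fold change of 0.32 ± 0.11 had a 95% confidence interval from 0.07 to 0.57 and a limma adjusted p of 0.0744, and it did not pass in any of 15 alternative analyses.

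Counted together, 6 of the 9 genes tested were higher in the mural cells (Col4a1, Col4a2, Col4a5, Nid1, Nid2 and Agrn) and none was lower, where 9.34% of all 14801 genes tested were higher and 13.0% lower. By unadjusted p under 0.05, 8 of the 9 were higher, as were 14.1% of all genes, and none was lower, as were 20.9% of all genes. Col4a1, Col4a2, Col4a5 and Nid1 were also more than 2-fold enriched, as were 6.43% of all genes. Every mural library was above every fragment library for 8 of the 9, and for 16.5% of all genes. The median ratio was 2.89 against 0.943 over all genes. Except for Col4a6, which would have passed the filter by its mural libraries alone, and Col4a3, the genes tested were above the filter in every library. The filter kept 9 of the 10 genes, so these counts do not cover Col4a4.

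The order of the genes was similar in both preparations. In the mural cells Col4a1 and Col4a2 came first and overlapped each other, followed by Agrn and Nid1, which overlapped, then by Hspg2 and Nid2, which overlapped, and by Col4a5, Col4a6, Col4a3 and Col4a4. Of the last 4, the neighbours Col4a3 and Col4a4 overlapped, while Col4a5 and Col4a6 were each separate from the next. In the fragments Col4a2, Col4a1 and Agrn came first with overlap between neighbours, Nid1 followed separately, and Hspg2 and Nid2 overlapped. The 4 minor chains came last, each overlapping the next.

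Ratios of FPKM within a library do not depend on the scaling between libraries, and 7 were compared. With 3 samples against 3 the exact two-sided permutation test cannot give a p under 0.1, so none of the 7 could pass. Col4a1 and Col4a2 were at similar levels in every library. The Col4a1 to Col4a2 ratio was 1.04, 0.835 and 0.799 in the fragments and 1.21, 1.31 and 0.977 in the mural cells. The groups overlapped, since mural replicate 3 was below fragments replicate 1 (exact p = 0.2, adjusted over the ratios 0.28). Together these chains made up 98.6 to 99.4% of the summed FPKM of all 6 chains, with no separation between the groups. The share of Col4a5 was 0.445, 0.509 and 0.658% in the fragments and 0.327, 0.707 and 0.923% in the mural cells, with overlap.

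The Col4a5 to Col4a1 ratio was 0.00885, 0.0113 and 0.0150 in the fragments and 0.00601, 0.0126 and 0.0190 in the mural cells (exact p = 1.0). The Col4a5 to Col4a6 ratio was 4.68, 2.88 and 1.84 in the fragments and 2.19, 5.36 and 2.71 in the mural cells (exact p = 0.8). Within the limits of these few counts, neither ratio set the groups apart.

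For the remaining 4 ratios the groups did not overlap, which with the smallest possible exact p of 0.1 came to 0.175 after adjustment over the 7 ratios. The Nid1 to Nid2 ratio was 1.82, 1.70 and 1.57 in the fragments and 3.58, 3.99 and 3.58 in the mural cells, a log2 difference of 1.13. The mural cells thus held more Nid1 relative to Nid2 in each library. The Hspg2 to Col4a1 ratio was 0.242, 0.281 and 0.397 in the fragments and 0.0910, 0.0814 and 0.118 in the mural cells, a log2 difference of -1.65. Perlecan transcript was therefore lower relative to collagen IV in every mural library, although its own level was not lower. The Hspg2 to Agrn ratio was 0.344, 0.365 and 0.433 in the fragments and 0.233, 0.232 and 0.265 in the mural cells, a log2 difference of -0.64. The Nid1 to Col4a1 ratio differed the least of the 4, at 0.427, 0.445 and 0.565 in the fragments and 0.345, 0.317 and 0.391 in the mural cells, a log2 difference of -0.44.

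**Figure D2:**
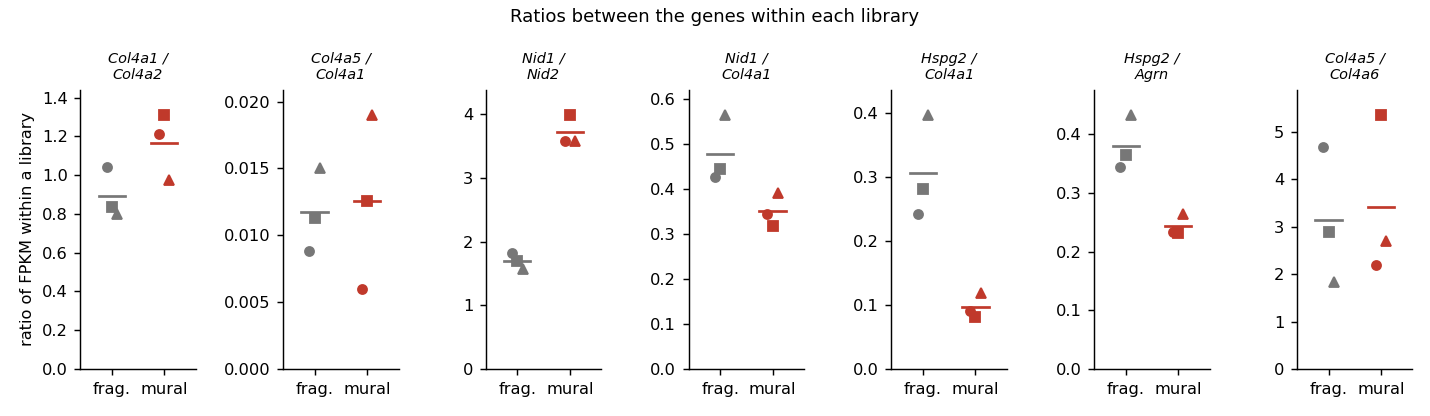
Ratio of the FPKM of a pair of genes within each library, 1 panel per pair with its own linear axis from 0; grey is fragments, red is mural cells, shapes are replicate numbers (circle 1, square 2, triangle 3) and bars are means. The groups separate for Nid1 to Nid2, Nid1 to Col4a1, Hspg2 to Col4a1 and Hspg2 to Agrn and overlap for the other 3 pairs.

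The median ratio of the basement membrane genes (2.89) lay between those of the endothelial (0.685) and the mural markers (9.08). It was also below the median of the 6 fibroblast markers tested (4.18), whose ratios ran from 1.59 to 12.9. The part of these cell types in the ratios was not tested. Of the 9 genes tested, 7 were above the highest endothelial marker, Esam (ratio 1.29), the exceptions being Hspg2 and Col4a3. All 9 were below the lowest mural marker, Cspg4 (ratio 6.47).

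**Figure D3:**
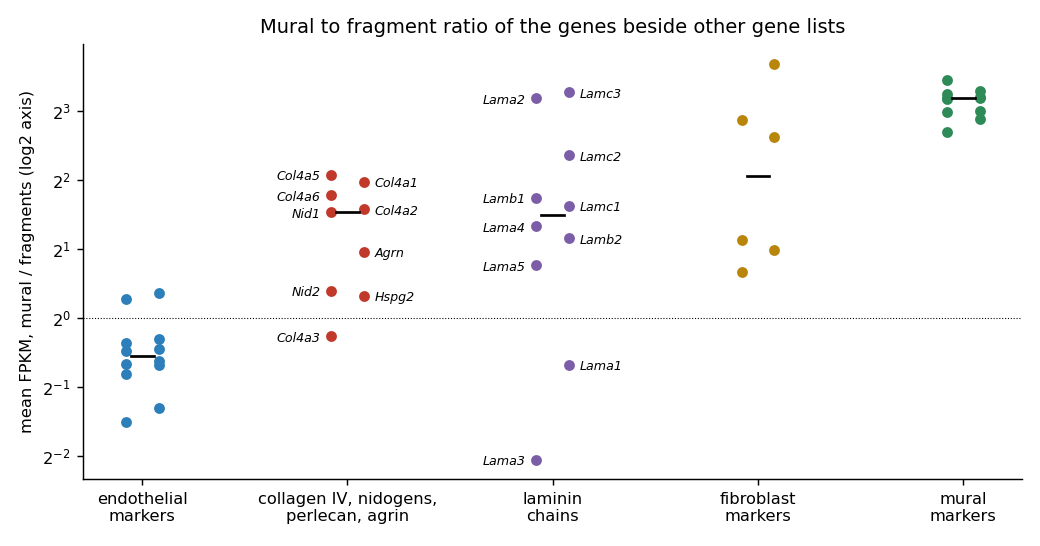
Ratio of mean FPKM, mural cells to fragments (log2 axis, 3 libraries per group), of each tested gene of 5 lists; short bars are list medians and the dotted line is a ratio of 1. The collagen IV, nidogen, perlecan and agrin genes have a median of 2.89, between the endothelial markers (0.685) and the mural markers (9.08). The medians of the laminin chains and the fibroblast markers are 2.81 and 4.18.

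The 5 related lists that follow had 13, 12, 10, 16 and 21 genes tested. Of these together, 25 were higher and 12 lower, to be read against 9.34% and 13.0% of all genes tested. The number lower was 5, 6 and 4 without fragments replicate 1, 2 and 3. Of 13 genes tested for enzymes and chaperones of collagens, collagen IV among them, 4 were higher in the mural cells and none was lower. The fibroblast marker Col1a1, itself a collagen chain, was also higher (ratio 12.9). Its part in these calls was not tested. Loxl2, a lysyl oxidase that crosslinks collagen IV, had mean values of 13.4 and 85.8 FPKM in fragments and mural cells (log2 fold change 2.59, limma adjusted p = 0.000109). Plod2, a lysyl hydroxylase, had a log2 fold change of 1.61 (adjusted p = 0.000672). The other lysyl hydroxylases, Plod1 (-0.064, limma adjusted p = 0.682) and Plod3 (-0.345, 0.166), did not pass. Pxdn, the peroxidase that forms sulfilimine crosslinks in the network, was also higher, with 1.34 (0.000414), and so was Serpinh1, the collagen chaperone HSP47, with 1.31 (0.000516). The prolyl hydroxylase P4ha1 (-0.40, adjusted p = 0.142) and the galactosyltransferase Colgalt1 (-0.39, adjusted p = 0.187) had the smallest values and did not pass.

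Of 12 receptors for collagens and other basement membrane proteins, 6 were higher and 2 lower. Of all genes tested, 9.34% were higher and 13.0% lower, and whether the list differs from these shares was not tested. Itga7, a laminin-binding integrin chain of muscle, was at mean values of 5.84 FPKM in the fragments and 66.0 FPKM in the mural cells (log2 fold change 3.26, limma adjusted p = 0.000131). Itga1, an integrin chain that binds collagen IV, was at 50.7 and 221.5 FPKM (2.11, 0.000131). Its partner Itgb1 was higher as well (0.69, 0.00751), as was Dag1, encoding dystroglycan, which binds agrin, perlecan and laminins (1.29, 0.00029). The collagen receptor kinase Ddr2 and the laminin receptor Bcam made up the 6. The related kinase Ddr1 did not pass (0.91, limma adjusted p = 0.207), with mural values of 12.8, 17.5 and 51.9 FPKM. The laminin-binding integrin chains Itgb4 (-2.68, adjusted p = 0.00366) and Itga6 (-0.91, adjusted p = 0.00269) were lower. Itgb4 was near 0 in the mural cells, at 0.105, 0.749 and 0.666 FPKM. Itga2, another collagen-binding integrin chain of the list, was at -0.89 without passing (limma adjusted p = 0.0832). In the fragments Itgb4 was at 13.6, 9.43 and 4.62 FPKM, and the choroid plexus marker Ttr was at 1358, 871.6 and 638.2 FPKM. Both were highest in replicate 1 and lowest in replicate 3, which was not particular to them. Some mural markers had the same order, such as Pdgfrb (54.81, 46.8 and 34.6 FPKM). Others did not, such as Cspg4 (43.26, 43.43 and 32.55 FPKM), and the cause of the order was not tested.

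Laminins, the other network of basement membranes, had 6 of 10 tested chains higher and 1 lower. Lamc3 was at 11.8 and 113.9 FPKM in fragments and mural cells (log2 fold change 3.17, limma adjusted p = 0.000149), and Lama2, the chain lost in a form of congenital muscular dystrophy, was at 8.74 and 79.4 FPKM (3.03, 9.49e-05). The widely expressed chains Lamb1 (1.72) and Lamc1 (1.62), with adjusted p of 0.000363 and 0.000159, changed by about as much as Col4a2 and Nid1. Lama3, an epithelial chain, was lower (-1.58, adjusted p = 0.00417), and Lama1 was at -0.66 without passing (adjusted p = 0.0538).

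Of 16 other basement membrane proteins, 6 were higher and 4 lower. Netrin 4 (Ntn4), which binds laminin, had a log2 fold change of 2.39 (limma adjusted p = 0.0063), with mural values of 16.1, 21.1 and 52.8 FPKM of which replicate 3 was the highest. Pikachurin (Egflam), a dystroglycan ligand, had 2.13 (0.000184). Tinagl1, Col18a1, Fbln1 and Sparc were the other 4 that were higher. Fibulin 2 (Fbln2), which binds nidogen, was lower by a log2 fold change of -2.15 (0.00019), and nephronectin (Npnt), an integrin ligand, by -2.03 (0.0106). Papln and Hmcn1 were lower too.

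The enzymes that build and trim the heparan sulfate carried by perlecan and agrin showed 3 of 21 higher and 5 lower. Of all genes tested, 9.34% were higher and 13.0% lower, and whether the list differs from these shares was not tested. The sulfotransferases Ndst3, at 4.01 and 27.7 FPKM in fragments and mural cells (log2 fold change 2.52, limma adjusted p = 0.00019), and Hs6st2 (1.63, 0.0152) were higher, as was Extl3. The heparanase gene Hpse was lower (-2.38, 0.00996), with 1 mural library at 0, and the endosulfatase gene Sulf1 was lower as well (-1.49, 0.0446), together with Sulf2, Hs3st1 and Hs6st1. Ndst4 was listed at 0 in all mural libraries and was not tested. Beside these lists, 8 of 8 microglia, 3 of 5 choroid plexus and 7 of 12 endothelial markers were lower, and 4 of 6 fibroblast markers were higher. The part of these cell types in the lists' calls was not tested.

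**Figure D4:**
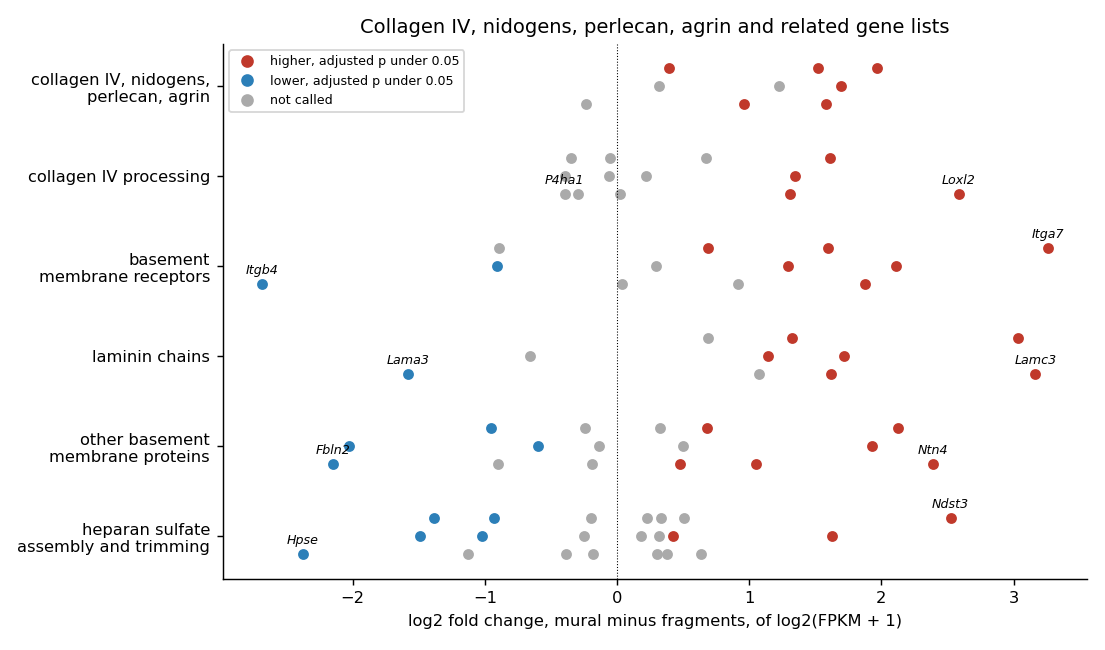
Log2 fold change of FPKM + 1, mural cells minus fragments, of each tested gene of 6 lists; red points were higher and blue points lower at an adjusted p under 0.05, and grey points did not pass. The top row has no blue point, the collagen IV processing row has none either, and the other lists hold points on both sides.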

How the data were processed

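Per the labels and the study's methods, the authors prepared stranded total RNA libraries from low input after depletion of ribosomal RNA and sequenced them in 1 lane. The authors aligned read pairs to NCBIM37 with TopHat2 2.0.4, removed duplicates with Picard 1.92 and used Cufflinks 2.2.1. The deposited values are FPKM per Ensembl gene and library. The scaling between libraries is not given in the sources used here. Median-ratio factors were 0.993 to 1.022. Of 9 identifiers listed more than once, 1 line was kept.

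Symbols and coordinates came from GENCODE vM1, which held 33116 of the genes, and sequences from the NCBIM37 genome. The 10 genes and the gene lists were chosen with earlier results of these data known. Mia3, of the collagen IV processing list, had no match. Depth was estimated from low FPKM values, of which 98.0 to 99.2% came out as whole fragments (within 0.1). Genes with FPKM of at least 1 in at least 3 libraries (14801) were fitted as log2(FPKM + 1) with limma 3.58.1 (R 4.3.3, intensity trend, Benjamini-Hochberg adjustment). The pseudocount understates the change of genes at low values. Called means an adjusted p under 0.05, and enriched also a ratio of mean FPKM above 2. The code was tested on simulated data, in which false calls were a larger share of all calls than the threshold of 0.05 allows. Most of them, but not all, were lower calls of genes at 0 in every library of a group. No gene named here as lower was at 0 in a whole group. In the mural libraries, however, Itgb4 (0.105, 0.749 and 0.666 FPKM) and Hpse (0.642, 0 and 1.31 FPKM) were near 0. Ratios within a library were compared with exact permutation tests (SciPy 1.17.1). Named from each related list were the 2 highest and the 2 lowest genes by log2 fold change, with others whose role the text needed. Alternatives covered the pseudocount, scaling, filter, trend, threshold, replicate block, protein-coding genes and leaving out each library, and, chosen after seeing the data, a fit without genes that a whole group lists at 0.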

Additional observations from a re-analysis of the deposited data

How the results depend on the processing

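Col4a1, Col4a2, Nid1 and Agrn were past the threshold in each of 15 alternatives, and Hspg2 in none. Leaving out 1 library at a time left 4 to 6 of the genes higher, 3 to 5 enriched and 0 lower. For the 5 related lists, with 13, 12, 10, 16 and 21 genes tested, 25 genes were higher (21 to 25 leaving out 1 library) and 12 lower (4 to 12). The number lower was 6 without the filter and 5 at an adjusted p under 0.01. It was 5, 6 and 4 without fragments replicate 1, 2 and 3. The cause was not tested. The log2 fold change of Col4a3 reversed to 0.44 under quantile normalization, to 0.103 without fragments replicate 1 and to 0.248 without mural replicate 2, and ranged from -0.652 to 0.248 over the libraries left out. Quantile normalization moved the median log2 fold change of all genes from -0.12 to 0.01, and Col4a6 passed under it (adjusted p = 0.0131) while Nid2 did not (0.0876). Without the filter Col4a5 did not pass (0.0908). In the limma fit without the intensity trend Nid2 did not pass (adjusted p = 0.101), while Col4a6 did (0.0432). The log2 differences of the 7 ratios changed with 1 library left out to 0.295 to 0.509 (Col4a1 to Col4a2), -0.397 to 0.431 (Col4a5 to Col4a1), 1.07 to 1.18 (Nid1 to Nid2), -0.523 to -0.317 (Nid1 to Col4a1), -1.80 to -1.45 (Hspg2 to Col4a1), -0.71 to -0.546 (Hspg2 to Agrn) and -0.261 to 0.459 (Col4a5 to Col4a6).

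The sources used here do not say whether same-numbered libraries came from 1 brain. Their deviations from the group means correlated at 0.082, 0.020 and 0.045 over genes, which was too weak to treat the numbers as pairs, although each library correlated best with its own number. With a replicate block, 6 of the genes were higher, 5 enriched and 0 lower, and the lists had 23 higher and 9 lower. Col4a6 passed (adjusted p = 0.0474) and Nid2 did not (0.0712), and the block changed no other call among the genes tested. A sign-flip test of the ratios by number cannot give a p under 0.25.

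Depth limits the values of Col4a3, Col4a4 and Col4a6, with 1 to 36 fragments behind each mural value, and that of Col4a5 with 77 to 91.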

Other observations

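For each of the 9 genes tested, the 3 protein-coding genes whose log2(FPKM + 1) followed it most closely over the 6 libraries were listed. Since the libraries form 2 groups, a high Pearson r mainly reflects a difference between the groups in the same direction, whatever its size. It is given as a description. Nid1 was followed by the laminin chain gene Lama2 (r = 0.9999), the guanylate cyclase subunit gene Gucy1a3 (0.9995) and the small leucine-rich proteoglycan gene Aspn (0.9993). Lama2 was at means of 8.74 FPKM in the fragments and 79.4 FPKM in the mural cells, Gucy1a3 at 20.2 and 173.0 FPKM, and Aspn at 4.65 and 59.4 FPKM. Agrn was followed by the protocadherin gene Pcdh18 (0.9998), the dystrophin gene Dmd (0.9998) and the adenylyl cyclase gene Adcy6 (0.9991), of which Dmd was at 29.3 and 215.0 FPKM.

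The genes nearest to Col4a1 were Tspan17 (0.9996), Arhgef40 (0.9986) and Vasn (0.9984). Those nearest to Col4a2 were Runx1t1 (0.9995), Daam1 (0.9995) and Ehd3 (0.9989). Nid2 was followed by St8sia1 (0.9992), Hlf (0.9982) and Boc (0.9976), and Hspg2 by Shc4 (0.9968), Serpine2 (0.9948) and 6230409E13Rik (0.9947). Col4a5 was followed by Atp1a4 (0.9978), Esyt2 (0.9961) and Cfl2 (0.9960), and Col4a6 by Zfp251 (0.9914), Tmem165 (0.9909) and Stk16 (0.9901). For Col4a3, whose groups overlapped, the nearest were Klf5 (0.9812), Jazf1 (0.9714) and Zfp119a (0.9670).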
